A study of Homo sapiens with 4 samples.

Results

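The genes described here are 8 that lie in chromosome bands 17q23 and 20q13, which are amplified in the breast cancer line MCF-7: TRIM37, RPS6KB1, BCAS3 and TBX2 on 17q23, and SULF2, BCAS4, ZNF217 and BCAS1 on 20q13. They were chosen by name and position, with earlier results of these data known, and all 8 were found among the 23605 gene symbols of the tables. RNA was sequenced from LCC9 cells, a line of MCF-7 descent that is resistant to tamoxifen and carries wild-type estrogen receptor alpha, after 24 h with A7, a compound described by the submitters as a mimetic of BRCA1 (2 samples), or with the vehicle DMSO (2 samples). Both groups grew in IMEM free of phenol red, with 5% serum stripped by charcoal and hence poor in estrogen. Whether the samples of each group were separate cultures is not stated, so the spread between them may be technical, and LCC9 is 1 cell line. A7 is called by its code name, since its catalogue number is not the same in the series and sample titles.

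Amplification adds copies of a chromosome segment, and genes inside such a segment can be transcribed from the extra copies. In MCF-7 the segments on 17q23 and 20q13 are known to be broken and rejoined, and fusion transcripts are known. That of BCAS4 with BCAS3 joins 20q13 to 17q23. Those of ARFGEF2 with SULF2, on 20q13, and of RPS6KB1 with VMP1, on 17q23, join genes of the same band. DNA copy number was not measured here, and a table with 1 value per gene cannot tell RNA of an intact gene from RNA of a fusion. LCC9 descends from MCF-7 by selection in the laboratory, and whether it kept each segment was not tested.

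The compound was studied for its action on the estrogen receptor at a promoter, so the promoters of the 8 genes were searched for the receptor's binding motif. RefSeq windows (GRCh38.p14) from 250 bases before to 50 after a transcription start were at hand for 6 of the 8 genes, 10 windows in all. The full palindromic estrogen response element, GGTCA, 3 free bases and TGACC, occurred in 0 of the 10 windows and in 20 of all 35116 such windows (0.057%). The half-site, GGTCA or its reverse complement TGACC, occurred in 3 of the 10 windows and in 37.4% of all windows. Those 3 windows are shown because they hold the motif, and the ZNF217 window because that gene had the smallest unadjusted p of the 8. The BCAS3 window is chr17:60677601-60677900 on the plus strand, the SULF2 window, 1 of 4 of that gene, is chr20:47764379-47764678 on the minus strand, the BCAS4 window, 1 of 2, is chr20:50794644-50794943 on the plus strand, and the ZNF217 window is chr20:53593790-53594089 on the minus strand. Each is written 5′ to 3′ on the strand of the gene, and capitals mark the half-site.
BCAS3: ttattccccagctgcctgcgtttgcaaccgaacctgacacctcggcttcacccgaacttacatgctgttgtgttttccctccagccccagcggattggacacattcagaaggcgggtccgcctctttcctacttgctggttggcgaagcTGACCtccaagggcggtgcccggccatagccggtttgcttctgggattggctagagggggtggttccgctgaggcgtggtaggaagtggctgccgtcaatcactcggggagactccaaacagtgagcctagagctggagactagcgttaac
SULF2: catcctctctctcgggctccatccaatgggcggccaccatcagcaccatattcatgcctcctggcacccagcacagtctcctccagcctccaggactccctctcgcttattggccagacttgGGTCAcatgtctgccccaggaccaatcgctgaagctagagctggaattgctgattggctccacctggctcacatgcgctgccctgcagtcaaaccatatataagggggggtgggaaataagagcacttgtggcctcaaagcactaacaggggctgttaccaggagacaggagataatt
BCAS4: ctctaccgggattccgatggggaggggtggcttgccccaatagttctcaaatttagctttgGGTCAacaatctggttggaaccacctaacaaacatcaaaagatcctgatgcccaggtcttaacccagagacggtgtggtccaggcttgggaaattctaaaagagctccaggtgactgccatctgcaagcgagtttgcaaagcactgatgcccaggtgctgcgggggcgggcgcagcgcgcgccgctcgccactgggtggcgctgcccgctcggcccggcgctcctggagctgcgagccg
ZNF217: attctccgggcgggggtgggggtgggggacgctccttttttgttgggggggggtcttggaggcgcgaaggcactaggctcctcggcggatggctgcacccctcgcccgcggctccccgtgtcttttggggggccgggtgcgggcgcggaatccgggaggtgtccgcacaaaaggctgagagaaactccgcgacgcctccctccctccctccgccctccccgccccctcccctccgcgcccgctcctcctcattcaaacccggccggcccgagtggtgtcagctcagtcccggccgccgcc
The half-site begins 101 bases before the start in BCAS3, 128 before it in that SULF2 window and 189 before it in that BCAS4 window. The windows of TRIM37, RPS6KB1 and ZNF217 hold no such letters. A match is a run of letters only, and receptor binding was not measured in these files.

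Levels are given as scaled FPKM, which are the deposited values (fragments mapped to a gene, relative to its transcript length and to the mapped fragments of the library) divided by a factor per library between 0.990 and 1.02. Because FPKM is per length, levels of different genes can be set side by side, as far as the length that entered each value is right. That length is not stated. Matched transcripts ran from 365 to 6680 nt for BCAS4 and from 1913 to 5479 nt for RPS6KB1, so their levels are the least firm in this respect. With vehicle, the 8 genes spanned a wide range, TRIM37 being highest and TBX2 lowest. TRIM37 stood at rank 1080 of the 8952 genes tested, which are those that averaged at least 1 FPKM across the 4 libraries. It was followed by RPS6KB1 at rank 1583, SULF2 at 2053, BCAS3 at 2587, ZNF217 at 3020, BCAS1 at 5067, BCAS4 at 5808 and TBX2 at 8711. The median of the 8 vehicle means was 13.3 scaled FPKM, and that of all genes tested was 5.61. Each gene in this order lay above the next in every vehicle library. The ranges over the vehicle libraries of neighbours in the order did not overlap, except those of BCAS1 and BCAS4. With A7 the order was the same and the ranges of all neighbours in it were separate, although BCAS3 and ZNF217 only narrowly. TBX2 barely passed the minimum, with 2 of its 4 deposited values under 1.

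**Figure D1:**
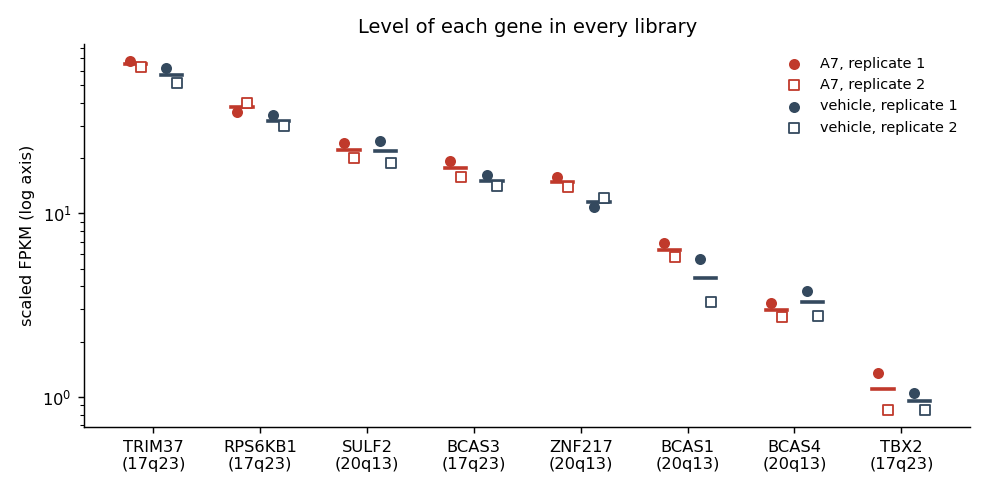
Scaled FPKM (log axis) of the 8 genes in each library, in order of the vehicle mean, with A7 in red and vehicle in dark blue. Circles are replicate 1, squares replicate 2, and bars the group mean. TRIM37 is highest, with means of 65.0 for A7 and 56.6 for vehicle, and TBX2 is lowest, with means of 1.10 for A7 and 0.950 for vehicle.

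With A7, 7 of the 8 genes had a higher mean and 1 a lower mean. Of all 8952 genes tested, 4447 had a positive and 4505 a negative log2 difference. None of the 8 passed the test. The test was limma on log2(scaled FPKM + 1), two-sided, with Benjamini-Hochberg adjustment over all 8952 genes and a threshold of 0.05. On this scale the differences of low genes are understated. Over all genes 1 was called higher (0.0112%) and 1 lower (0.0112%), together 0.0223%, so a count of 0 among 8 lies near the background. On simulated data the same fit recovered 31.0% of 2-fold changes. Smaller changes, such as the differences of the 8 genes, were not simulated, so the absence of a call does not show that a gene was unchanged. At an unadjusted p under 0.05, 516 of all genes (5.76%) and 0 of the 8 passed. With FPKM rescaled to TPM, ZNF217 and RPS6KB1 passed at that unadjusted level (limma adjusted p = 0.535 for both). The median log2 difference of all genes was 0.17 on the TPM scale, and the share of all genes passing there was not computed. Without vehicle replicate 1, which leaves 1 vehicle library, the log2 difference of BCAS1 was 0.77. The smallest two-sided p that an exact permutation of 2 against 2 samples can give is 0.333, so none is used.

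On 17q23, TRIM37 and RPS6KB1 were higher in both A7 libraries than in both vehicle libraries. TRIM37 encodes a ubiquitin ligase that limits centrosome assembly and modifies histone H2A. It stood at 67.3 and 62.7 scaled FPKM with A7 and at 62.0 and 51.2 with vehicle. The A7 libraries were the highest, but the lower of them exceeded vehicle replicate 1 by only a small step. The means were 65.0 ± 3.3 with A7 and 56.6 ± 7.6 with vehicle (SD, n = 2 each), a ratio of 1.15, and the difference on the log2 scale was 0.20 (SE 0.15, limma adjusted p = 0.831). It was 0.072 without vehicle replicate 2 and 0.33 without vehicle replicate 1. RPS6KB1 encodes the kinase S6K1, which phosphorylates ribosomal protein S6 downstream of mTOR. It stood at 35.8 and 40.0 scaled FPKM with A7 and at 34.2 and 29.8 with vehicle. The groups were apart, with A7 replicate 1 close to vehicle replicate 1. The means were 37.9 ± 3.0 with A7 and 32.0 ± 3.1 with vehicle, a ratio of 1.18, and the difference on the log2 scale was 0.24 (SE 0.15, limma adjusted p = 0.806). It was 0.15 without vehicle replicate 2.

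BCAS3 and TBX2, the other 17q23 genes, overlapped between the groups. BCAS3 encodes a protein of the cytoskeleton and of autophagy. It stood at 19.3 and 15.9 scaled FPKM with A7 and at 16.2 and 14.0 with vehicle. A7 replicate 2 lay just under vehicle replicate 1, so the overlap is narrow. The difference on the log2 scale was 0.20 (SE 0.17, limma adjusted p = 0.846), and with FPKM rescaled to TPM the groups no longer overlapped. It was 0.071 without A7 replicate 1, 0.11 without vehicle replicate 2 and 0.34 without A7 replicate 2. TBX2 encodes a T-box repressor that holds back senescence. It stood at 1.36 and 0.848 scaled FPKM with A7 and at 1.05 and 0.851 with vehicle. A7 replicate 1 was the highest, and replicate 2 of both groups was alike. The difference on the log2 scale was 0.10 (SE 0.25, limma adjusted p = 0.954) and turned to -0.076 without A7 replicate 1. The TBX2 values rest on about 27 estimated fragments with A7 and 14 with vehicle, which per depth gives an A7 to vehicle ratio of 1.17 (exact binomial 95% interval 0.592 to 2.41, counting error only). The interval spans a lower and a higher level with A7, so these counts do not settle a direction. The size of change that could be detected for TBX2 was not computed.

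On 20q13, ZNF217 and BCAS1 were higher in both A7 libraries than in both vehicle libraries and had the largest differences of the 8. ZNF217 encodes a zinc-finger protein that works with corepressors and is a candidate oncogene of the band. It stood at 15.8 and 13.9 scaled FPKM with A7 and at 10.8 and 12.2 with vehicle. The lower A7 library was clear of the higher vehicle library. The means were 14.9 ± 1.3 with A7 and 11.5 ± 1.0 with vehicle, a ratio of 1.30, and the difference on the log2 scale was 0.35 (SE 0.16, 95% limma interval -0.048 to 0.74, unadjusted p = 0.0752, limma adjusted p = 0.806). BCAS1, named for its amplification in breast cancer, is otherwise known from myelin-forming cells. It stood at 6.93 and 5.77 scaled FPKM with A7 and at 5.62 and 3.29 with vehicle. Vehicle replicate 2 was far below the other libraries, and vehicle replicate 1 came close to A7 replicate 2. The means were 6.35 ± 0.82 with A7 and 4.46 ± 1.65 with vehicle, a ratio of 1.42. The difference on the log2 scale was 0.46 (SE 0.25, limma adjusted p = 0.806), and it was 0.15 without vehicle replicate 2 and 0.77 without vehicle replicate 1.

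SULF2 and BCAS4 showed no separation of the groups. SULF2 encodes a secreted sulfatase that trims heparan sulfate outside the cell. It stood at 24.3 and 20.1 scaled FPKM with A7 and at 24.7 and 18.9 with vehicle. The replicates of each group differed by more than the group means, which were 22.2 ± 3.0 with A7 and 21.8 ± 4.2 with vehicle. The difference on the log2 scale was 0.03 (SE 0.19, 95% limma interval -0.44 to 0.50, limma adjusted p = 0.985), and its sign turned without vehicle replicate 2 and without A7 replicate 1. BCAS4, which gives the first part of the fusion with BCAS3 in MCF-7, was the only gene of the 8 with a lower mean with A7. It stood at 3.25 and 2.71 scaled FPKM with A7 and at 3.79 and 2.76 with vehicle. The difference on the log2 scale was -0.09 (SE 0.21, limma adjusted p = 0.950), a sign that turned to 0.07 with FPKM rescaled to TPM, to 0.08 without vehicle replicate 1 and to 0.0081 without A7 replicate 2. The partners of that fusion thus stood at different levels, BCAS3 at 17.6 ± 2.4 with A7 and 15.1 ± 1.5 with vehicle and BCAS4 at 2.98 ± 0.39 with A7 and 3.27 ± 0.73 with vehicle. The BCAS4 level depends on a transcript length that is not stated.

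**Figure D2:**
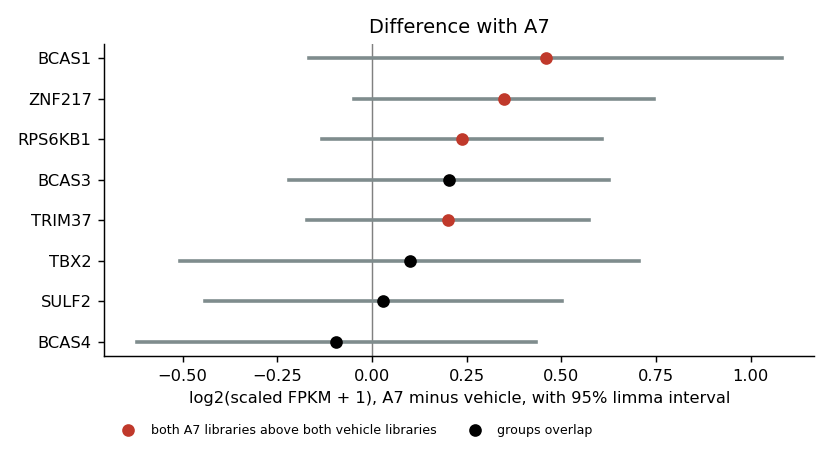
Difference of log2(scaled FPKM + 1), A7 minus vehicle, for the 8 genes, with 95% limma intervals. Red points are genes whose A7 libraries both lie above both vehicle libraries, black points genes whose groups overlap. All 8 intervals include 0, from BCAS4 at -0.09 to BCAS1 at 0.46.

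Both A7 libraries lay above both vehicle libraries in 4 of the 8 genes and below them in 0. Over all genes tested, A7 lay above in 18.3%, below in 18.6% and apart in either direction in 36.9%. The median log2 difference of the 8 was 0.20, against -0.0019 for all genes tested. On a TPM scale, where the median of all genes is 0.17, all 8 had a higher mean, the median of the 8 was 0.41 (0.24 relative to that of all genes), and 5 of the 8 groups did not overlap. Of the 8, 7 lay above the median of all genes on that scale. The share of all genes with A7 above was not computed there, so 18.3% is no background for the 5. The number with a higher mean was 8 without vehicle replicate 1 or without A7 replicate 2, 6 without vehicle replicate 2, and 5 without A7 replicate 1. The median of the 8 was 0.11 without A7 replicate 1 and 0.09 without vehicle replicate 2.

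The libraries also differed by transcript length and by level in a way that touches these genes. Of tested genes whose longest GENCODE 29 transcript with a RefSeq match was under 2000 nt, 10.7% had both A7 libraries above both vehicle libraries, and this share was 15.2% at 2000 to under 3000 nt, 18.6% at 3000 to under 5000 nt and 29.9% at 5000 nt or more. The median log2 difference in these classes was -0.10, -0.02, 0.02 and 0.07. All 8 genes had a transcript of 3000 nt or more, with ZNF217 at 5633 nt, RPS6KB1 at 5479 nt and BCAS4 at 6680 nt in the longest class. The share also moved with level, at 22.4% for genes with a mean of 1 to under 10 scaled FPKM, 13.1% at 10 to under 100 and 3.64% at 100 or more. For the 901 genes of 3000 nt or more at 10 to under 100 scaled FPKM, among which were TRIM37, RPS6KB1, BCAS3, SULF2 and ZNF217, it was 16.3%, with a median log2 difference of -0.01. For the 3049 genes of that length at 1 to under 10, among which were BCAS1, BCAS4 and TBX2, it was 26.3%, with a median of 0.07. A positive difference was found in 47.5% of those 901 genes and in 62.5% of those 3049. Among genes of any length at 100 or more scaled FPKM, 16.2% had a positive difference, and the median was -0.16. The part of length and level in the differences of the 8 genes was not tested.

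**Figure D3:**
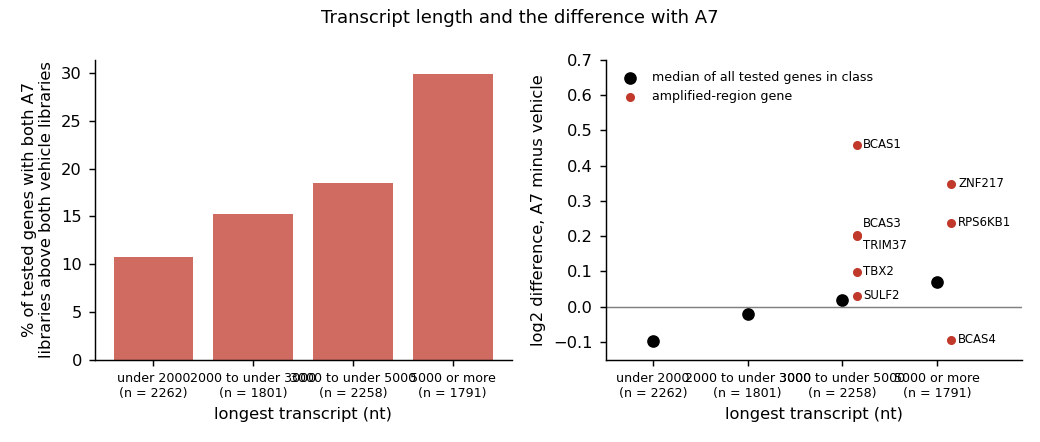
Left, share of tested genes (%) with both A7 libraries above both vehicle libraries, by class of longest transcript (nt). Right, median log2 difference (A7 minus vehicle) of each class in black, and the 8 genes in red; the share is 10.7% in the shortest and 29.9% in the longest class, and 7 of the 8 genes lie above the median of their class.

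Depth, as read from the steps of low values, was also unequal. It came to roughly 4000000 and 3100000 fragments with A7 and 2200000 and 2100000 with vehicle. For genes with 1 matched transcript length this corresponds to about 1165 and 849 fragments with A7 and 587 and 479 with vehicle for TRIM37, and to 356 and 245 with A7 and 133 and 148 with vehicle for ZNF217. BCAS1 rested on 84 to 91 and 54 to 60 fragments with A7 and on 37 to 41 and 21 to 23 with vehicle, depending on the transcript. The kit marks no strand as far as the labels say, and exons of 7 of the 8 genes overlap a gene on the opposite strand by 28 to 550 bases in GENCODE 29, RPS6KB1 being the exception. Of these opposite-strand genes, PPM1E beside TRIM37 and NCOA3 beside SULF2 are listed in the tables. RPS6KB1 matches pseudogenes on chromosome 17 over up to 21.8% of its longest transcript at 95.2% identity, so its reads could be split by the authors' counting. All 8 luminal markers stood at 1 scaled FPKM or more in every library. Of the basal or myoepithelial markers, KRT5, KRT14 and KRT17 were listed at 0 in every library, whereas ACTA2 stood at 11.1 and 11.3 scaled FPKM with A7 and 13.7 and 14.6 with vehicle, and TP63 at 0.942 and 0.793 with A7 and 0.547 and 1.46 with vehicle. The leukocyte marker PTPRC was listed at 0 in every library. Fibroblast markers summed to 9.82 and 0.843 with A7 and to 0.416 and 0.421 with vehicle, mostly from DCN in A7 replicate 1, with COL3A1 at 0 in 3 libraries. That difference was not tested for a part in the values above.

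The 8 genes sit among neighbours of which some stood far higher. Along 17q23 from TRIM37 to TBX2, 20 of 28 symbols were tested, and their vehicle median was 23.2 scaled FPKM, against 6.08 for the rest of chromosome 17. Along 20q13 from SULF2 to BCAS1, 24 of 41 were tested, with a vehicle median of 6.89, against 4.59 for the rest of chromosome 20. No test was made of these levels, since neighbours are not replicates. TRIM37 and RPS6KB1 lay above the 17q23 median and BCAS3 and TBX2 below it, and SULF2 and ZNF217 lay above the 20q13 median and BCAS4 and BCAS1 below it. PARD6B, a cell polarity protein gene next to BCAS4, averaged 779 ± 82 scaled FPKM with A7 and 861 ± 199 with vehicle, so that BCAS4 and its neighbour differed widely in level. VMP1, an autophagy gene and fusion partner of RPS6KB1, averaged 256 ± 26 with A7 and 275 ± 30 with vehicle. ARFGEF2, a vesicle traffic gene and fusion partner of SULF2, averaged 2.67 ± 0.27 with A7 and 2.72 ± 0.35 with vehicle, below SULF2 itself.

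**Figure D4:**
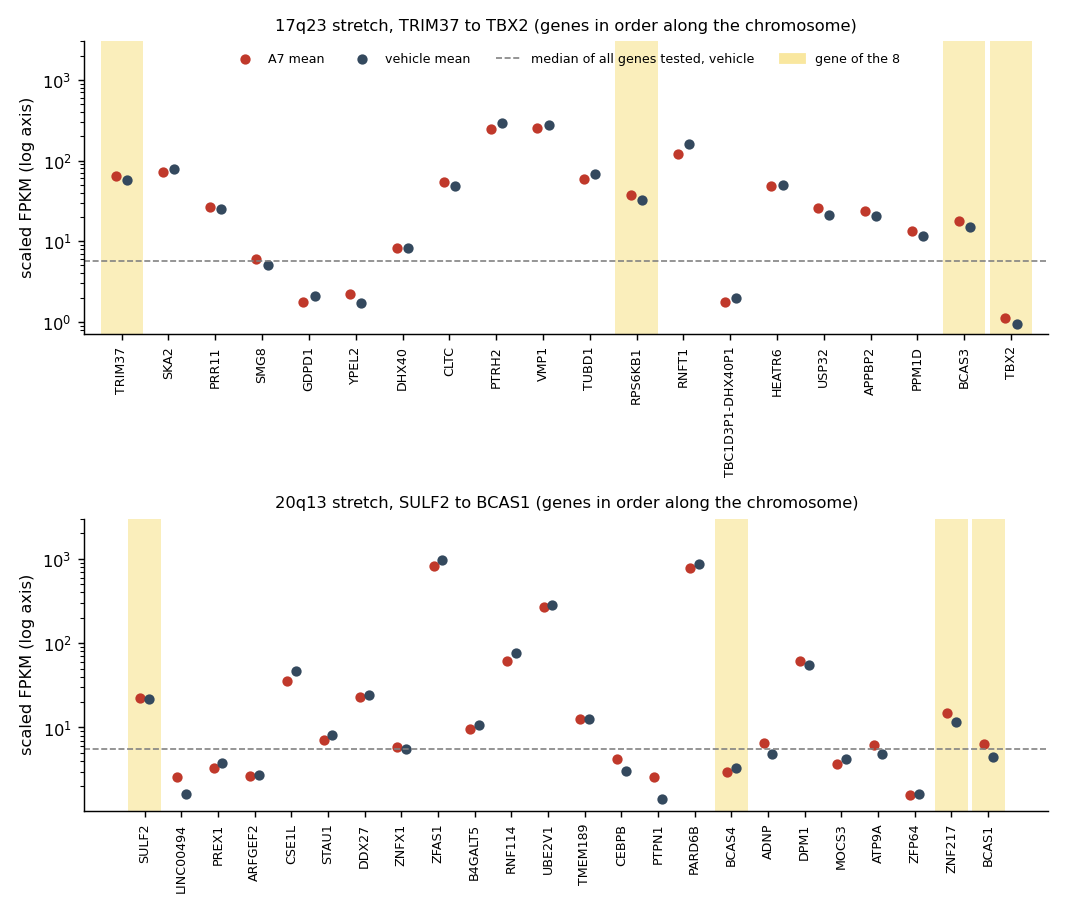
Mean scaled FPKM (log axis) of the tested genes in their order along 17q23 and 20q13, A7 in red and vehicle in dark blue, with the 8 genes shaded and the vehicle median of all genes tested dashed. PARD6B and ZFAS1 on 20q13 and PTRH2 and VMP1 on 17q23 stand highest, and TBX2 is the lowest on 17q23.

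Named neighbours did not pass the limma test either. Of 23 listed 17q23 neighbours 19 were tested, 9 with a higher and 10 with a lower mean with A7, and their median difference on the log2 scale was -0.02. Both A7 libraries lay above both vehicle libraries in 7 of those 19 and below them in 4, against 18.3% and 18.6% of all genes tested. Such separation was thus not confined to the 8 genes. NACA2, PTRH2, VMP1 and RNFT1 were the highest, with NACA2 at 525 ± 8 with A7 and 590 ± 16 with vehicle and PTRH2, a mitochondrial hydrolase gene, at 248 ± 14 with A7 and 289 ± 2 with vehicle. RNFT1, the gene next to RPS6KB1, averaged 122 ± 31 with A7 and 159 ± 14 with vehicle (limma adjusted p = 0.806), whereas RPS6KB1 had a higher mean with A7, a contrast that was not tested. All genes at 100 or more scaled FPKM, RNFT1 among them, had a median log2 difference of -0.16. USP32 averaged 25.6 ± 0.3 with A7 and 21.1 ± 0.4 with vehicle (limma adjusted p = 0.806) but shares near-identical sequence with USP6. Of 33 listed 20q13 neighbours 21 were tested, 9 with a higher and 12 with a lower mean, with a median of -0.02. In 5 of those 21 both A7 libraries lay above both vehicle libraries, and in 3 both lay below. The highest were the noncoding RNA ZFAS1, at 820 ± 149 with A7 and 977 ± 60 with vehicle, PARD6B, the prefoldin gene PFDN4, at 779 ± 7 with A7 and 728 ± 124 with vehicle, and UBE2V1, which shares sequence with its read-through transcript, at 266 ± 37 with A7 and 283 ± 28 with vehicle. NCOA3, a coactivator of the estrogen receptor that lies beside SULF2, averaged 64.6 ± 5.6 with A7 and 49.7 ± 3.8 with vehicle (log2 difference 0.37, unadjusted p = 0.0419, limma adjusted p = 0.806). ADNP, next to BCAS4, averaged 6.61 ± 0.08 with A7 and 4.87 ± 0.19 with vehicle, and the phosphatase gene PTPN1 2.58 ± 0.71 with A7 and 1.42 ± 0.46 with vehicle (limma adjusted p = 0.806 for both). The signs of both neighbour medians turned with FPKM rescaled to TPM, to 0.18 and 0.13, against 0.17 for all genes.

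Genes that act with the 8 or are their relatives showed no call. Of 25 listed, 19 were tested, 14 with a higher and 5 with a lower mean with A7, and 0 passed. Their median difference on the log2 scale was 0.083, and it was 0.0062 without vehicle replicate 2, 0.013 without A7 replicate 1 and 0.13 without A7 replicate 2. RPS6, the substrate of S6K1, averaged 5695 ± 361 scaled FPKM with A7 and 6989 ± 756 with vehicle (limma adjusted p = 0.806), whereas RPS6KB1 had a higher mean. RPS6 is among the genes at 100 or more scaled FPKM, whose median log2 difference was -0.16. RPS6KB2, the relative of RPS6KB1, was under the minimum, at 0.748 and 0.466 with A7 and 0.692 and 0.350 with vehicle, so that RPS6KB1 was the more abundant S6 kinase gene in every library. The translation factor gene EIF4B, a further substrate of S6K1, averaged 128 ± 1 with A7 and 121 ± 3 with vehicle. PDCD4, a translation inhibitor that S6K1 also phosphorylates, averaged 40.8 ± 2.6 with A7 and 42.3 ± 0.6 with vehicle. MLST8, a subunit of the mTOR complexes upstream of S6K1, averaged 1.54 ± 0.20 with A7 and 2.97 ± 1.21 with vehicle (limma adjusted p = 0.806). Among the corepressors that can work with ZNF217, HDAC1 averaged 47.4 ± 7.8 with A7 and 52.7 ± 6.0 with vehicle, and CTBP1 19.0 ± 1.5 with A7 and 22.8 ± 4.3 with vehicle. The other listed corepressors, RCOR1, KDM1A, CTBP2 and HDAC2, had a positive log2 difference. RPS6, PDCD4, MLST8, HDAC1 and CTBP1 are all 5 genes of the list with a lower mean, whereas most of the 14 with a higher mean are not named. SULF1, the relative of SULF2, was listed at 0.0733 and 0.0955 with A7 and at 0 in both vehicle libraries, and TBX3, the relative of TBX2, at 0.473 and 0.382 with A7 and at 0 and 0.434 with vehicle.

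For each of the 8 genes, the gene with the nearest pattern over the 4 libraries is given as a description only. Nearness was taken as the root-mean-square distance between log2(scaled FPKM + 1) values centred on each gene's mean, among the other genes that averaged at least 10 FPKM. The closest gene was OAS3 for TRIM37 (distance 0.0117), PRKAR1A for RPS6KB1 (0.0130), EIF2AK1 for BCAS3 (0.0202) and MRFAP1 for TBX2 (0.0162). It was EIF4H for SULF2 (0.0204), UBA1 for BCAS4 (0.0160), NBPF10 for ZNF217 (0.0386) and IMMP1L for BCAS1 (0.0240). Each is the smallest of 3279 or 3280 distances over 4 values, no background distance was computed, and the TBX2 pattern rests on 6 to 18 estimated fragments per library.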

How the data were processed

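Each library has a table of FPKM by gene symbol, deposited by the authors, per the file headers. The submitters' processing notes name CASAVA 1.8.2, TopHat, Cufflinks 2.2.1 and GRCh37 without saying what each did. The gene annotation and the handling of reads with several places are not stated. Of 23619 lines, 14 had a whole number in place of a symbol and were left out. Since these values are no counts, a log-scale model was used. Scale factors per library were medians of ratios to the geometric mean over the 4 libraries. The 8952 genes that averaged at least 1 FPKM were tested by limma 3.58.1 under R 4.3.3 (linear model, empirical Bayes with a variance trend) on log2(scaled FPKM + 1), with 2 residual and 3.89 prior degrees of freedom. The fit was checked on simulated data. Lengths, gene order and overlaps came from GENCODE 29 on GRCh38, with lengths for 90.6% of tested genes. Copies came from blastn 2.17.0 (identity of at least 95%). The only coordinates given are those of promoter windows, on GRCh38.p14. Depth was estimated from the FPKM worth of 1 fragment among low genes, with lengths not corrected for fragment size.

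The 8 genes and the lists were chosen with earlier results of these data known. Named from each list were the 4 highest and the 3 of smallest p, any gene that passed, and the fusion partners; for likeness, the closest gene. The smallest p of the partners list belonged to RPS6, MLST8 and CTBP1. Alternatives were other pseudocounts, filters and scalings, no variance trend, a replicate block and leaving out each library.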

Additional observations from a re-analysis of the deposited data

How the results depend on the processing

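None of the 8 genes passed at a limma adjusted p under 0.05 under any of the 12 alternatives, with adjusted p between 0.526 and 0.998. TRIM37, RPS6KB1, BCAS3, ZNF217 and BCAS1 kept a higher mean under all 12, with ZNF217 between 0.26 and 0.55 on the log2 scale. Leaving out 1 library moved TRIM37 between 0.072 and 0.33, RPS6KB1 between 0.15 and 0.33, BCAS3 between 0.071 and 0.34, BCAS1 between 0.15 and 0.77, TBX2 between -0.076 and 0.28, SULF2 between -0.15 and 0.21, and BCAS4 between -0.27 and 0.079. With FPKM rescaled to TPM, BCAS4 stood at 0.067, the 17q23 neighbours at 0.18, the 20q13 neighbours at 0.13 and the partners at 0.25, where the median of all genes was 0.17. The 17q23 neighbours stood at 0.041 after quantile normalization, and the 20q13 neighbours at 0.077 with no filter. Leaving out 1 library moved the median of the 17q23 neighbours between -0.053 and 0.10, that of the 20q13 neighbours between -0.048 and 0.061, and that of the partners between 0.0062 and 0.13. Over all genes, 0 were higher with no filter, with no variance trend and with the replicate block, and 0 were lower with a pseudocount of 0.1 or 0.01, with no filter and with the replicate block; 2 were lower with TPM and after quantile normalization. Without 1 library there were 0 to 9 higher and 0 to 7 lower genes. Causes of these shifts were not tested, other than that fewer libraries enter.

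The shared replicate numbers are not said to pair the samples, and deviations of same-numbered libraries from their group means correlated at 0.0906 across genes. The replicate block left 0 genes called higher and 0 called lower, and changed no call among the 8. TBX2 rests on 6 to 18 estimated fragments per library, and BCAS4, whose transcripts differ in length from 365 to 6680 nt, has no firm fragment count (2 to 5 per library if the shortest applies, 40 to 87 if the longest).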
